A study of Mus musculus with 4 samples.

Results

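The interferon-induced gene families are genes that cells switch on after an interferon signal, among them the Ifit, Ifitm, Oas, Gbp and IRG families, the ubiquitin-like modifier Isg15 and the cytosolic RNA sensors. Members were taken by symbol: all rows whose name begins with Ifi, Oas, Irgm, Iigp, Igtp, Tgtp or Isg, with Gbp and a digit, and the genes Rsad2, Usp18, Rtp4, Bst2, Mx1, Mx2, Xaf1, Zbp1, Ddx58, Dhx58, Parp9, Parp12 and Parp14. This gave 68 genes of 19175 in the series, 66 of 15396 in the AAV table and 56 of 12318 in the stress table, with 54 in both. The symbol rule also brought in Isg20l2, a paralog of Isg20, and Dhx58os, an antisense transcript at Dhx58, which belong to the set by name only. The tissue was prelimbic cortex, part of the medial prefrontal cortex, taken at 8 weeks of age from C57BL/6 mice, in 4 groups of 1 library each. The groups were mice given adeno-associated virus (AAV) expressing the chromatin corepressor CDYL (AAV-CDYL), mice given AAV expressing green fluorescent protein (AAV-GFP), mice susceptible to chronic social defeat stress, and control mice whose label carries the same stress tag, so that what the controls went through is unclear. The promoter and the cells in which the virus was expressed, and whether a library was 1 mouse or a pool, are not stated in the labels.

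Interferons are secreted proteins that bind paired receptors and act through JAK kinases and STAT transcription factors. Type I interferons act mainly through the interferon-stimulated response element (ISRE) in promoters, and interferon-gamma mainly through gamma-activated sites (GAS). The induced proteins sense foreign nucleic acid, block viral entry and translation, or, like the Gbp and IRG GTPases, attack the vacuoles of intracellular microbes, and in brain they are known from microglia, endothelium and infiltrating leukocytes as well as from infected neurons.

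The promoters of 8 members are shown because the members that follow are described beside them: 6 hold the ISRE core and 2 do not. They come from RefSeq on GRCm38.p6 and run from 250 bases before to 50 after the annotated start, 5′ to 3′, with matches to the ISRE core on either strand in capitals, where adjoining matches run together. The core searched was GAAA, any 2 bases, then GAAA.
Isg15, chr4:156200769-156201068, minus strand: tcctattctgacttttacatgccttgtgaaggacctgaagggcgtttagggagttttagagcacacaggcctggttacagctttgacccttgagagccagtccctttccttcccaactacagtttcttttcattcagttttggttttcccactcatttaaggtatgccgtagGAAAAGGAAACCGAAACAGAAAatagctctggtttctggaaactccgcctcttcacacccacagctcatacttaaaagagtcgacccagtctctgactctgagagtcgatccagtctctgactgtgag
Ifit1, chr19:34640639-34640938, plus strand: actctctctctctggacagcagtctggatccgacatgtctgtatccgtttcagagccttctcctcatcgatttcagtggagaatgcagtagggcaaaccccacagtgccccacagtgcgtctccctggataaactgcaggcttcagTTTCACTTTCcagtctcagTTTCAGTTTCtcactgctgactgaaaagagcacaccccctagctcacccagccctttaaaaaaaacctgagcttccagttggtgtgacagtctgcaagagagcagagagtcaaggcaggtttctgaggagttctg
Ifit3, chr19:34583279-34583578, plus strand: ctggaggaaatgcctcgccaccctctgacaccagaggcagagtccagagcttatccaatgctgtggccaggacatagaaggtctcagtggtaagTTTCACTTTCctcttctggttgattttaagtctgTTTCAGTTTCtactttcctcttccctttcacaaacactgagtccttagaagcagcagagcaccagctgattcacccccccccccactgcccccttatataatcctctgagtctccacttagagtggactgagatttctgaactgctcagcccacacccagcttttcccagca
Ifitm3, chr7:141010695-141010994, minus strand: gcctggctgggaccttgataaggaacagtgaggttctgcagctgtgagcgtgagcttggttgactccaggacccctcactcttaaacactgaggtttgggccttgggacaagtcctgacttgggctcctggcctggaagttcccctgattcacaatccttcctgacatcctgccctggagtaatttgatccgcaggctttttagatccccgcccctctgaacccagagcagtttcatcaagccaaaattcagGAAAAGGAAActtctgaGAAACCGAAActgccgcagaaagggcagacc
Irgm1, chr11:48871371-48871670, minus strand: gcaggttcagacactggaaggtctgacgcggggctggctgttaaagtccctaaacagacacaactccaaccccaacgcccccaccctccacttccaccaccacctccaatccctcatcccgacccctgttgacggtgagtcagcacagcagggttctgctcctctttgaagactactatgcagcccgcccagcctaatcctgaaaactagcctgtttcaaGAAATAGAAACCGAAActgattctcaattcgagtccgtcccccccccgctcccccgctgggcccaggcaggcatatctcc
Gbp2, chr3:142620413-142620712, plus strand: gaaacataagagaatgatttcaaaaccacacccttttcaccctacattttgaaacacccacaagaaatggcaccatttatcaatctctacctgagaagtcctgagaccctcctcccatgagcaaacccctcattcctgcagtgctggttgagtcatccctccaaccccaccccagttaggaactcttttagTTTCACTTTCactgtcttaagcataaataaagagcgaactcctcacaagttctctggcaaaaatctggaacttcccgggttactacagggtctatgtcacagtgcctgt
Oasl2, chr5:114896684-114896983, plus strand: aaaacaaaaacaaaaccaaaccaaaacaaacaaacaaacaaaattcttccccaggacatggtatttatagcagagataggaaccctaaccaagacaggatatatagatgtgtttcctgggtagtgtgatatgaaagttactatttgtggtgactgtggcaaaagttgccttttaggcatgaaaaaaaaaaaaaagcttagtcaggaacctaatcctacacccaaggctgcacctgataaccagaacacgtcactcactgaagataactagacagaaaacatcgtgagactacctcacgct
Ifitm6, chr7:141016843-141017142, minus strand: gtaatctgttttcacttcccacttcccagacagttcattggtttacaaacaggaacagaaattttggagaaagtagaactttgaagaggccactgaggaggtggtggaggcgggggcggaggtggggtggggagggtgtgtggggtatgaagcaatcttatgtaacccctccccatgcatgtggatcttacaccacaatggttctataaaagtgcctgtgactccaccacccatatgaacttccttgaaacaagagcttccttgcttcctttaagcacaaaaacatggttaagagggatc
Isg15 held 3 overlapping matches, Ifit1, Ifit3, Ifitm3 and Irgm1 held 2 each, Gbp2 held 1, and Oasl2 and Ifitm6 held none in these windows. In Ifitm3 both matches lay after the annotated start. Of 67 member symbols, 45 were in the RefSeq table, and 27 of these genes (60.0%, exact binomial 95% interval 44.3 to 74.3%) held the core in at least 1 window, against 1079 of 27025 genes in the whole table (3.99%). All 5 Gbp genes with a window held it, as did all 5 genes named Irgm, Igtp or Tgtp and both sensors with a window. So did 4 of 5 Ifit genes, 4 of 8 Oas genes and 2 of 6 Ifitm genes. IRG GTPases here are the genes named Irgm, Iigp, Igtp or Tgtp. Families were set by symbol, so Ifi47 was kept with the other Ifi genes and not with these, and its window held no match. There were 41 matches, 36 of them beginning within 200 bases before the start, with a median first base at -66, and 13 genes held more than 1. The windows of Ifit1 and Ifit1bl2 overlap and share the same 2 matches, which were counted for each gene. Other windows, such as those of Ifit3 and Ifit3b, are close copies. The counts and the interval treat such genes as separate, so the interval is too narrow. The GAS core TTCNNNGAA, searched on both strands, was found in 13 of the 45 genes (28.9%) and in 9.55% of all genes, and 2 of its 15 matches overlapped an ISRE core. A match is a stretch of letters and says nothing of binding.

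**Figure D1:**
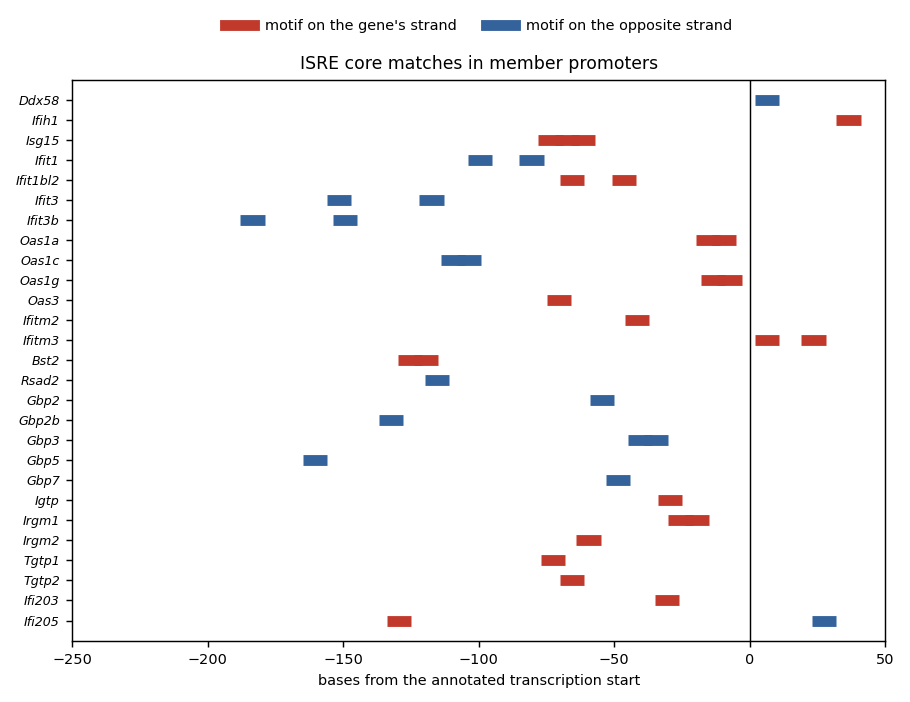
Positions of ISRE core matches in the promoters of the 27 members that hold at least 1, in bases from the annotated transcription start (vertical line at 0), red on the gene's strand and blue on the opposite strand. Of 41 matches, with those shared by Ifit1 and Ifit1bl2 counted for each gene, 36 begin within 200 bases before the start.

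All values are FPKM, a fragment count corrected for transcript length and library size, as the authors deposited them, in 1 table per pair. By the size rule used here, a member that reached 1 FPKM in either library of a pair was higher or lower if FPKM + 1 differed at least 1.5-fold, and differences are given in log2(FPKM + 1). Adding 1 shrinks the differences of low genes, and folds are ratios of the FPKM values as deposited. With 1 library per group no difference has a replicate check, so no test was made. The 95% intervals given with folds cover counting error only, from fragment numbers estimated from effective depths of 23800000 fragments (AAV-CDYL), 22600000 (AAV-GFP), 23100000 (susceptible) and 14300000 (control), and they are too narrow for transcripts short against a fragment, such as those of Ifitm genes, Isg15 and Ifi27l2a. Genes with values above 0 in both libraries that differ by less than 0.32 on the log2 scale are not in the tables, so an unlisted member is not shown to be alike. All genes here means all listed genes, so their shares and medians leave out the genes that differ least. Cdyl itself stood at 1052 FPKM in the AAV-CDYL library and 2.68 in AAV-GFP, in the direction of the label, and at 2.54 in susceptible and 1.98 in control.

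In the AAV-CDYL library, members of all 10 families were higher than in the AAV-GFP library, and none was lower. Of the members counted and above 0 in AAV-GFP, all but Ifitm1, Ifitm2 and Ifi27 were more than 5-fold higher. The clearest count is over the 21 members that reached 1 FPKM in AAV-GFP, since the others could pass the floor only by being higher with AAV-CDYL: 20 of the 21 were higher, with a median difference of 3.91, where 21.2% of all genes at that floor were higher and their median was -0.32. Over the 57 members at 1 FPKM in either library 56 were higher and 0 lower (31.3% and 14.4% of all genes), but 36 of them passed through AAV-CDYL alone. The remaining 9 were under 1 FPKM in both libraries. The summed level of the 66 members was 1897 FPKM in AAV-CDYL and 81.1 in AAV-GFP, and 40 members reached 10 FPKM in AAV-CDYL against 1, Ifi27, in AAV-GFP. Fewer or more cells of a type and less or more RNA per cell cannot be told apart in such tissue.

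**Figure D2:**
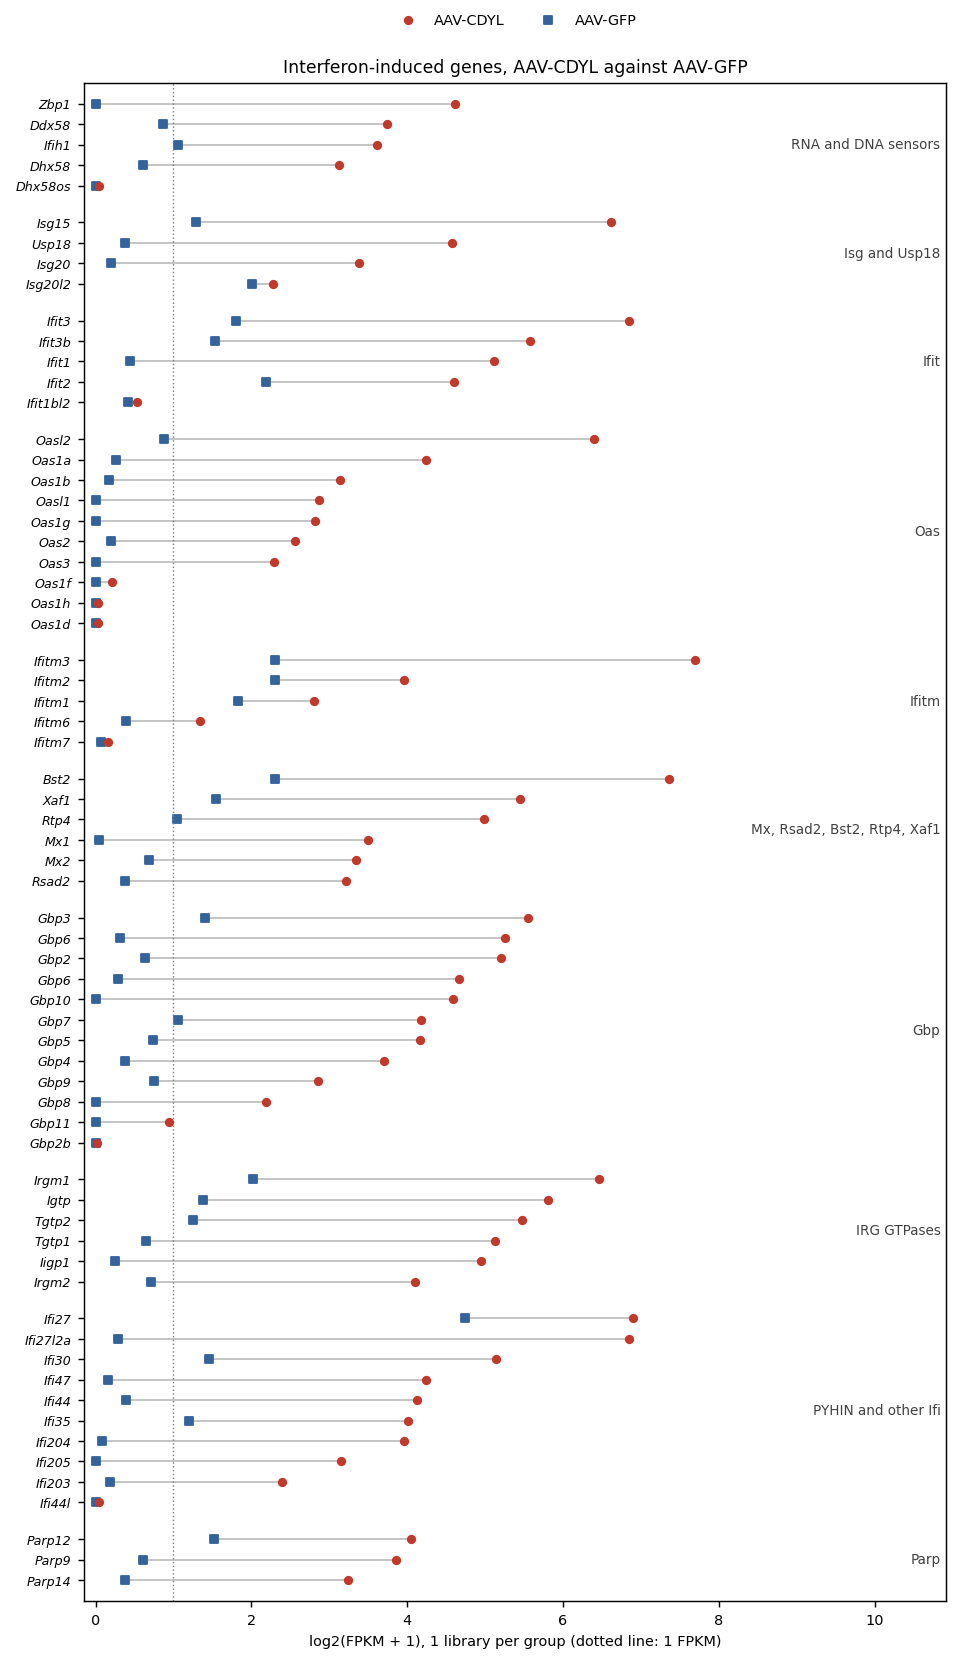
log2(FPKM + 1) of the 66 members in the AAV-CDYL library (red circles) and the AAV-GFP library (blue squares), 1 library each, by family. Nearly all red circles lie far to the right, up to 206 FPKM for Ifitm3; Isg20l2 (3.86 and 3.01 FPKM) and the members under 1 FPKM in both libraries are the exceptions, and Gbp6 has 2 rows with separate gene IDs.

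Among the sensors, Zbp1, which binds Z-form nucleic acid and can trigger necroptosis, was at 23.4 FPKM in AAV-CDYL and listed at 0 in AAV-GFP. The RIG-I gene Ddx58, which recognises viral RNA ends, was at 12.4 and 0.820 FPKM in AAV-CDYL and AAV-GFP, a 15.1-fold difference (11.5 to 20.04). Ifih1 (MDA5), the sensor of long double-stranded RNA, was at 11.2 FPKM in AAV-CDYL and 1.09 in AAV-GFP. All 4 sensors at the floor were thus higher. Of these only Ifih1 reached 1 FPKM in AAV-GFP, so the floor fixed the direction of the others. Dhx58 (LGP2), at 7.69 FPKM in AAV-CDYL and 0.533 in AAV-GFP, had the smallest difference, 2.50, and Ifih1 had the smallest fold, 10.3. Dhx58 shares a locus with 5 other listed genes and lies opposite Dhx58os. Dhx58os was at 0.0292 FPKM in AAV-CDYL and 0 in AAV-GFP.

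Isg15 (ENSMUSG00000035692, chromosome 4, 156199424 to 156200818), which is conjugated to proteins after interferon, was at 96.8 FPKM in AAV-CDYL and 1.44 in AAV-GFP, 67.1-fold higher (44.6 to 102). Usp18, the protease that removes ISG15 and also damps the type I receptor, was at 22.8 and 0.300 FPKM in AAV-CDYL and AAV-GFP. Both the modifier and its protease were therefore among the higher members, although Usp18 passed the floor through AAV-CDYL alone. Isg20, an exonuclease, was at 9.44 FPKM in AAV-CDYL and 0.147 in AAV-GFP, the last resting on about 3 estimated fragments. Isg20l2, at 3.86 and 3.01, was the only member at the floor that the size rule did not count.

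Ifit proteins bind RNA and restrain its translation, and 4 of the 5 listed Ifit genes were higher, 3 of them at 1 FPKM in AAV-GFP. Ifit3 (chromosome 19, 34583531 to 34588731) was at 114 FPKM in AAV-CDYL and 2.50 in AAV-GFP, 45.6-fold higher (37.2 to 56.0). Ifit1 was at 33.5 FPKM in AAV-CDYL and 0.361 in AAV-GFP, which is 93.0-fold (60.2 to 146). Ifit2 had the smallest difference of the 4, 23.3 in AAV-CDYL and 3.55 in AAV-GFP, although it was the highest of them in AAV-GFP. Ifit3b, whose sequence is close to that of Ifit3 so that fragments could be split between them, was at 46.5 FPKM in AAV-CDYL and 1.895 in AAV-GFP. The neighbouring Ifit1bl2 stayed under the floor, at 0.447 FPKM in AAV-CDYL and 0.333 in AAV-GFP. Its fold of 1.34 had a counting interval of 0.796 to 2.37, so no difference was detectable at this depth.

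Oas enzymes make the oligoadenylates that activate RNase L. In AAV-GFP 6 of the 10 listed Oas genes were at 0 and none reached 1 FPKM, so the floor fixed the direction of the 7 that were counted, all higher. Oasl2 was at 83.6 FPKM in AAV-CDYL and 0.834 in AAV-GFP, 100.2-fold higher (67.6 to 152). Oas1a was at 18.0 and 0.203, and Oas1b, annotated as a polymorphic pseudogene, at 7.78 and 0.131 in AAV-CDYL and AAV-GFP. The near copies of Oas1 were unlike one another: Oas1g was at 6.02 FPKM in AAV-CDYL, and Oas1f, Oas1h and Oas1d at 0.160, 0.0269 and 0.0221, all 4 listed at 0 in AAV-GFP.

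Ifitm proteins sit in membranes and block viral fusion, and within this family the differences were uneven. Ifitm3 (chromosome 7, 141009586 to 141010770) was the highest member in AAV-CDYL, at 206 FPKM, and was at 3.95 in AAV-GFP, 52.1-fold higher (40.6 to 68.9). Ifitm2, at nearly the same level in AAV-GFP (3.94), was at 14.6 in AAV-CDYL, a 3.71-fold difference (2.78 to 5.05). Ifitm1 was at 6.01 FPKM in AAV-CDYL and 2.56 in AAV-GFP. Thus Ifitm2 and Ifitm3 were level in AAV-GFP and the counting intervals of their folds did not overlap. The promoter of Ifitm3 printed above held 2 ISRE cores, that of Ifitm2 held 1, and that of Ifitm1 held none in its window.

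Bst2, or tetherin, which holds budding virions at the cell surface, was at 163 FPKM in AAV-CDYL and 3.92 in AAV-GFP, 41.7-fold higher (32.9 to 53.6). Xaf1, a pro-apoptotic antagonist of XIAP, was at 42.8 and 1.92 FPKM in AAV-CDYL and AAV-GFP. Rtp4, a receptor transporter, was at 30.6 in AAV-CDYL and 1.07 in AAV-GFP. Rsad2 (viperin) and the dynamin-like Mx genes were lower in level than these. Rsad2 was at 8.30 FPKM in AAV-CDYL and 0.304 in AAV-GFP. Mx1 was at 10.3 in AAV-CDYL and 0.0338 in AAV-GFP, where it rested on about 1 estimated fragment, so its ratio is poorly fixed (counting interval 77.6 to 17201).

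Guanylate-binding proteins (Gbp) coat the membranes of intracellular microbes, and their genes lie in a cluster on chromosome 3 and another on chromosome 5. The chromosome 3 genes summed to 116 FPKM in AAV-CDYL and 3.95 in AAV-GFP, and those on chromosome 5 to 108 and 1.46 in AAV-CDYL and AAV-GFP. Gbp3 was the highest, at 45.7 FPKM in AAV-CDYL and 1.65 in AAV-GFP. Gbp2 was at 35.9 and 0.547, 65.6-fold higher (46.2 to 97.0). One of the rows named Gbp6 was at 37.3 in AAV-CDYL and 0.248 in AAV-GFP and had the largest difference of the family, 4.94. Both Gbp6 rows and Gbp10, listed at 3.02e-09 in AAV-GFP, form a single locus, and so do Gbp4, Gbp8 and Gbp9, so the split of fragments within each trio is uncertain. Gbp11 and Gbp2b did not reach 1 FPKM in either library.

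The IRG GTPases are relatives of the Gbp proteins and classic targets of interferon-gamma in mice. The 6 genes named Irgm, Iigp, Igtp or Tgtp were all higher, with differences between 3.38 and 4.70. Only Irgm1, Igtp and Tgtp2 reached 1 FPKM in AAV-GFP, so the floor fixed the direction of Tgtp1, Iigp1 and Irgm2. Irgm1 (chromosome 11, 48861968 to 48871683), which protects host membranes from the other IRG proteins, was at 86.8 FPKM in AAV-CDYL and 3.07 in AAV-GFP, 28.3-fold higher (24.1 to 33.6). Iigp1, an effector that damages vacuoles, had the largest difference, 29.9 in AAV-CDYL and 0.187 in AAV-GFP. Igtp was at 55.0 FPKM in AAV-CDYL and 1.60 in AAV-GFP. The near copies Tgtp1 and Tgtp2 were at 33.9 and 43.6 in AAV-CDYL and at 0.562 and 1.37 in AAV-GFP, in a locus of 11 listed genes.

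Of the other Ifi genes, the neighbours Ifi27 and Ifi27l2a on chromosome 12 were at like levels in AAV-CDYL and at unlike ones in AAV-GFP. Ifi27 was at 118 FPKM in AAV-CDYL and 25.7 in AAV-GFP, the highest AAV-GFP level of any member, for a 4.59-fold difference (4.15 to 5.09). Ifi27l2a was at 114 in AAV-CDYL and 0.216 in AAV-GFP and had the largest difference of all members, 6.57, with about 2 estimated fragments in AAV-GFP and a counting interval of the fold from 165 to 4934. Ifi30, a lysosomal thiol reductase that prepares antigens, was at 34.2 FPKM in AAV-CDYL and 1.73 in AAV-GFP. The PYHIN genes Ifi203, Ifi204 and Ifi205, relatives of DNA sensors, were at 4.24, 14.6 and 7.87 in AAV-CDYL and at 0.135, 0.0620 and 0 in AAV-GFP. Parp12, an ADP-ribosyltransferase, was at 15.5 in AAV-CDYL and 1.87 in AAV-GFP, and Parp9, at 13.5 and 0.527, had the largest of the 3 Parp differences, 3.25.

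Against the whole AAV table, 51 of the 57 members at the floor had differences above the 95th percentile of all 8047 genes there, among them 17 of the 21 at 1 FPKM in AAV-GFP. Among the 66 members, 8 in the authors' deposited table have q under 0.05 (0.955% of all genes are called higher there). Of these, Zbp1, Oasl1, Oas1g, Oas3, Gbp11 and Ifi205 are at 0 in AAV-GFP, and Ifit2 and Ifit3 are the others. In the authors' deposited table Ifitm3, with 206 FPKM in AAV-CDYL, has q = 0.135. An unadjusted p under 0.05 stands for 41 members, all higher, in the authors' deposited table, where 5.16% of all genes are higher and 0.318% lower at that p.

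Against the control library, the susceptible library had more of the Ifitm genes on chromosome 7, the IRG GTPases and several Gbp genes. The counted Gbp genes, Ifitm6 and most of the IRG GTPases were under 1 FPKM in control, so the floor fixed their direction. Mx1, Mx2 and all listed Oas genes but Oasl2 stayed under 1 FPKM in both libraries. The 12 members at 1 FPKM in control had 8 that were higher and 0 lower, with a median difference of 0.87, where 13.5% of all genes at that floor were higher and their median was -0.29. At 1 FPKM in either library 24 of 31 were higher and 0 lower (18.9% and 10.8% of all genes), but 19 of them passed through the susceptible library alone. The 25 members under the floor included 4 with lower values in susceptible than in control. The summed level was 147 FPKM in susceptible and 49.7 in control over 56 members, and 53.3% of the susceptible sum came from Ifitm3, Ifitm2, Irgm1, Ifitm1 and Ifitm6.

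**Figure D3:**
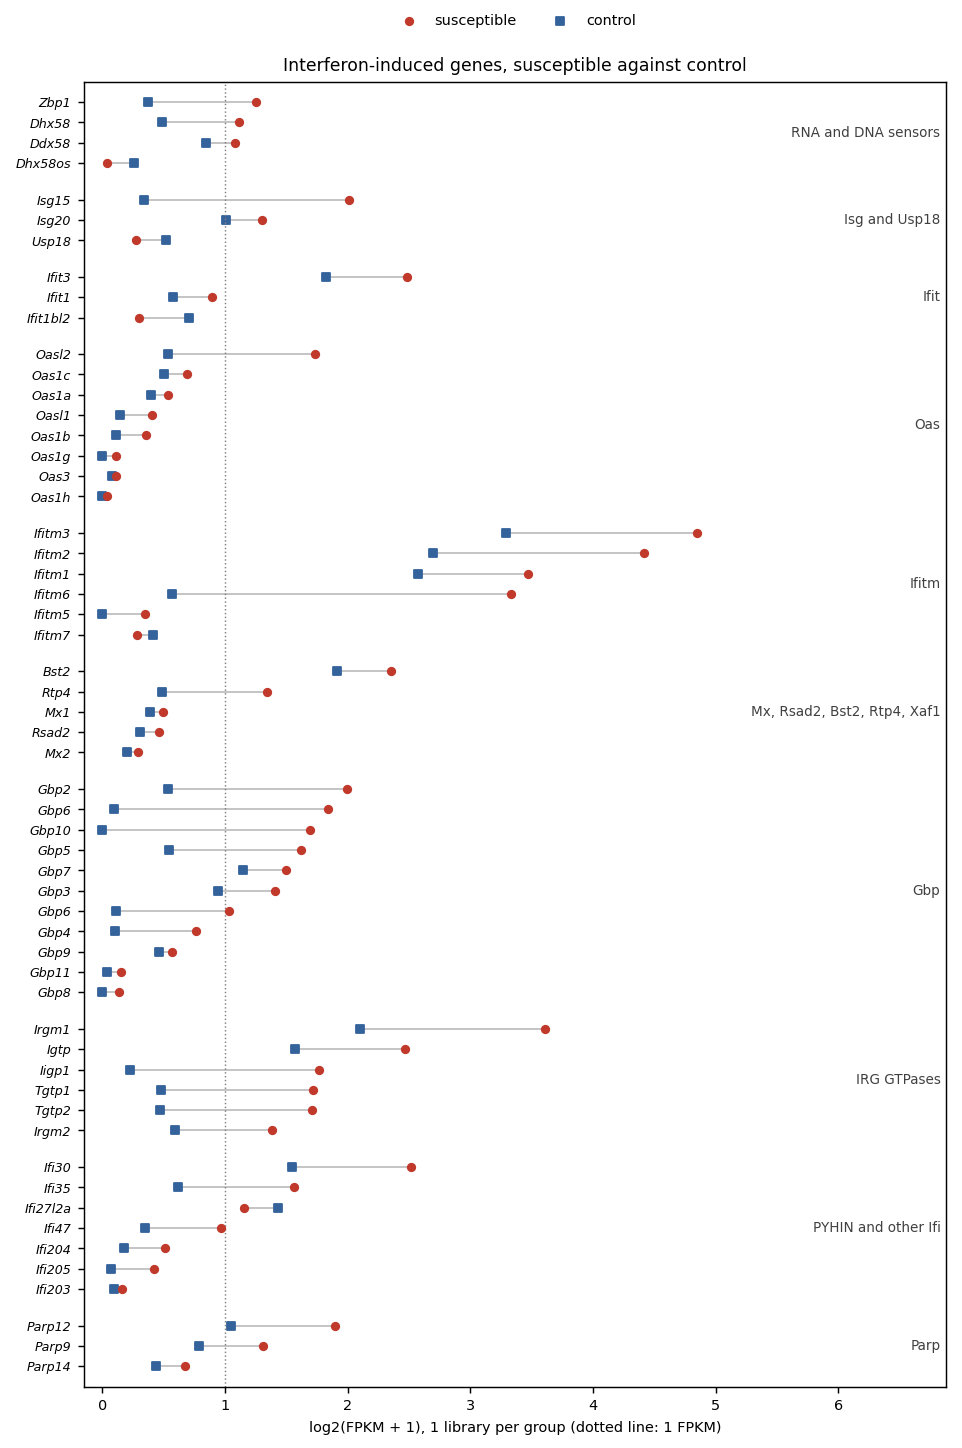
log2(FPKM + 1) of the 56 members in the susceptible library (red circles) and the control library (blue squares), 1 library each, by family; the axis is shorter than in the plot of the AAV pair. Ifitm1, Ifitm2, Ifitm3, Ifitm6 and Irgm1 reach the highest susceptible levels, and many Oas, Mx and PYHIN genes lie left of the dotted line at 1 FPKM in both libraries.

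Ifitm genes held the highest levels. Ifitm3 was at 27.8 FPKM in susceptible and 8.79 in control, 3.16-fold higher (2.50 to 4.04), and Ifitm2 at 20.4 in susceptible and 5.49 in control, 3.71-fold higher (2.77 to 5.13). Ifitm1 was at 10.1 and 4.94 FPKM in susceptible and control. These folds overlapped in their counting intervals, unlike those of Ifitm2 and Ifitm3 in the AAV pair. Ifitm6 (chromosome 7, 141015812 to 141016892) had the largest difference of all members in this pair, 2.76, with 9.05 FPKM in susceptible and 0.484 in control, or 18.7-fold (7.77 to 57.9) over about 5 estimated control fragments. Ifitm5, known from bone, was at 0.272 in susceptible and 0 in control, and Ifitm7 at 0.219 and 0.334.

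All 6 genes named Irgm, Iigp, Igtp or Tgtp were higher, with differences between 0.79 and 1.54. Ifi47, kept with the other Ifi genes, was under the floor at 0.958 FPKM in susceptible and 0.274 in control. Irgm1 was at 11.2 FPKM in susceptible and 3.28 in control, 3.40-fold higher (2.74 to 4.23). Iigp1 was at 2.41 in susceptible and 0.170 in control, 14.2-fold (6.57 to 35.1). Igtp, at 4.52 FPKM in susceptible and 1.97 in control, was with Irgm1 the only one at 1 FPKM in control, so the direction of the other 4 was fixed by the floor. Tgtp1 and Tgtp2 were nearly level with each other, at 2.29 and 2.27 in susceptible and at 0.393 and 0.382 in control.

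Among Gbp genes 5 of the 7 at the floor were higher, all 5 of them under 1 FPKM in control, so that the floor fixed their direction. Gbp2 was at 2.98 FPKM in susceptible and 0.454 in control, 6.56-fold higher (4.001 to 11.96), and Gbp5 at 2.08 and 0.455 in susceptible and control. The Gbp6 row with the largest difference was at 2.58 in susceptible and 0.0663 in control, where it rested on about 2 estimated fragments. Gbp7, alone in the family at 1 FPKM in control, was at 1.83 in susceptible and 1.22 in control and was not counted, nor was Gbp3 at 1.65 and 0.921.

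Of the genes usually read as the core antiviral response, Isg15, Oasl2 and Ifit3 were higher. Their susceptible levels were like those of the Gbp genes and of the IRG GTPases other than Irgm1. Isg15 and Oasl2 were under 1 FPKM in control, so the floor fixed their direction. Isg15 was at 3.03 FPKM in susceptible and 0.268 in control, 11.3-fold (3.54 to 54.6) over about 3 estimated control fragments, and Oasl2 at 2.33 in susceptible and 0.449 in control. Ifit3 was at 4.59 and 2.55 FPKM in susceptible and control, 1.80-fold higher (1.36 to 2.46). The other 7 listed Oas genes stayed under 1 FPKM in both libraries, as did Ifit1, Mx1, Mx2 and Rsad2. Mx1 was at 0.409 in susceptible and 0.312 in control, and Rsad2 at 0.377 and 0.240, with counting intervals of the fold that included 1. Usp18 was at 0.213 in susceptible and 0.432 in control, and Ifit1bl2 at 0.231 and 0.637. Of the members whose value was lower in susceptible, Ifit1bl2 alone had a counting interval of the fold below 1 (0.189 to 0.662).

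Bst2 was at 4.11 FPKM in susceptible and 2.77 in control and did not pass the size rule. Rtp4, at 1.54 in susceptible and 0.398 in control, had the largest difference of its group, 0.86. Among the sensors Zbp1 was at 1.39 FPKM in susceptible and 0.298 in control and was counted as higher with Dhx58, whereas Ddx58, at 1.12 and 0.802, was not. No sensor reached 1 FPKM in control, so the floor fixed the direction of those counted. Ifi30 was at 4.72 in susceptible and 1.92 in control, 2.46-fold higher (1.59 to 3.89), and Ifi35 at 1.95 and 0.535. Parp12 was at 2.72 in susceptible and 1.07 in control. The one member at the floor with a negative difference was Ifi27l2a, at 1.22 in susceptible and 1.71 in control (-0.28), with a counting interval of the fold from 0.302 to 1.80.

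Of the 31 members at the floor in the stress pair, 12 lay above the 95th percentile of the differences of all 5334 genes there, 3 of them among the 12 at 1 FPKM in control. In the authors' deposited table no member has q under 0.05 (0.284% of all genes are called higher there), and the lowest, Irgm1, has q = 0.313. At an unadjusted p under 0.05 the authors' deposited table has 11 members higher and 0 lower, where 3.12% of all genes are higher and 1.22% lower.

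The pairs share no library, and 31 members were at the floor in both. Of these 24 were higher in both, a count the floor favours. Of all genes at the floor of each pair, 31.3% were higher in the AAV pair and 18.9% in the stress pair. The share of all genes higher in both, or with the larger difference in the AAV pair, was not taken. Neither count is thus shown to be particular to the members. Of the 31 members, 29 had the larger difference in the AAV pair. Ifitm2 and Ifitm6 were the exceptions: Ifitm6 differed by 0.96 in the AAV pair, at 1.54 FPKM in AAV-CDYL and 0.306 in AAV-GFP, and by 2.76 in the stress pair, while Ifitm2 differed by 1.66 and 1.72 in the AAV and stress pairs. Among members the size of a difference in 1 pair hardly tracked that in the other (Spearman's rho 0.15, Pearson's r -0.16 over 31 genes, a description of genes that share libraries). Ifi27l2a, first of all members in the AAV pair, was slightly below control in the stress pair. Usp18 also changed sign between the pairs, with a difference of 4.20 in the AAV pair and -0.24, under the floor, in the stress pair. Whether any of these gaps between the pairs exceeds the spread between mice was not tested, with 1 library per group.

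**Figure D4:**
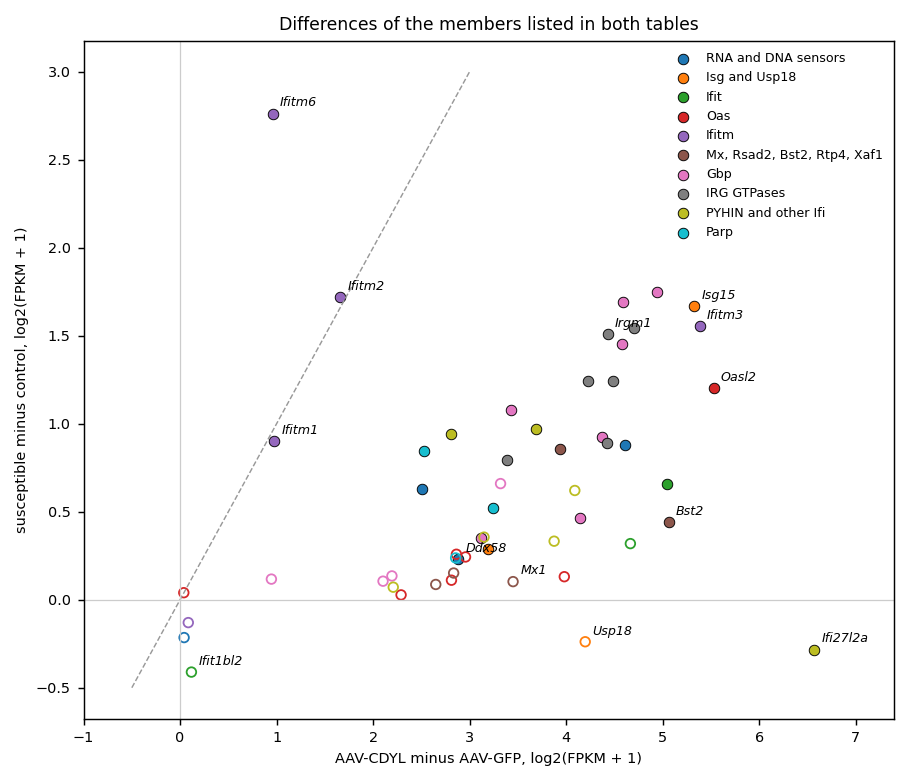
Differences in log2(FPKM + 1) of the 54 members listed in both tables, AAV-CDYL minus AAV-GFP on the horizontal axis and susceptible minus control on the vertical axis; filled points reach 1 FPKM in both pairs, open points do not, and the dashed line marks equal differences. Of the 31 filled points all but Ifitm2 and Ifitm6 lie below the dashed line, and Ifi27l2a is the filled point below 0 on the vertical axis.

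By promoter, the 24 members at the floor in the AAV pair that held the ISRE core had a median difference of 4.01 and ranged from 1.66 to 5.38, and the 13 without it had a median of 2.86 and ranged from 0.28 to 5.53. In the stress pair the 15 with the core had a median of 1.08, and the 7 without it 0.94. The ranges overlapped in both pairs. Many of these members passed the floor through AAV-CDYL or the susceptible library alone, which favours higher differences. The medians were not taken without them, so nothing is drawn from the gap between members with and without the core. The low end of 0.28 was Isg20l2, a member by name only. Oasl2 and Ifitm6, whose windows printed above hold no core, were at the top of the range without it in the AAV and the stress pair in turn.

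The rest of the pathway was read from lists of ligands, receptors, signalling genes, inhibitors and other interferon-stimulated genes. The shares of all genes that were higher, 31.3% in the AAV pair and 18.9% in the stress pair, or 21.2% and 13.5% at 1 FPKM in AAV-GFP and in control, stand beside all these counts. Few ligands were listed. Of 20 interferon genes, Ifng was at 0.534 FPKM in AAV-CDYL, about 15 estimated fragments, and Ifnb1 at 0.0797, about 1, both listed at 0 in AAV-GFP, and in the stress pair Ifng was listed at 0.0427 in susceptible and 0 in control. The other 18 had no row in either table, which does not show that they were absent. All 3 receptor genes at the floor, each at 1 FPKM or more in AAV-GFP, were higher in AAV-CDYL: Ifnar2, a chain of the type I receptor, was at 22.7 FPKM in AAV-CDYL and 9.59 in AAV-GFP, and Ifngr1, the ligand-binding chain for interferon-gamma, at 14.8 and 5.27. In the stress pair Ifngr1, the sole receptor gene listed, was at 7.25 in susceptible and 4.57 in control and was not counted.

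Signalling genes were higher for 16 of 19 in the AAV pair and lower for none, with a median of 1.35 (12 of 15 at 1 FPKM in AAV-GFP). Irf7, the amplifier of type I interferon production, was at 50.6 in AAV-CDYL and 0.360 in AAV-GFP, and Irf9 at 28.7 and 3.22. The uncounted ones were Irf2, Irf3 and Ticam1. In the stress pair 3 of 9 were higher and 0 lower (median 0.44; 2 of 7 at 1 FPKM in control): Stat3 was at 20.8 FPKM in susceptible and 11.8 in control, Irf1 at 4.98 and 2.97, and Tmem173, the STING gene, at 1.52 and 0.669.

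Inhibitors were higher for 3 of 3 in the AAV pair (2 of 2 at 1 FPKM in AAV-GFP) and for 2 of 4 in the stress pair (1 of 3 at 1 FPKM in control). Socs3, which blocks JAK kinases, was at 5.24 FPKM in AAV-CDYL and 1.13 in AAV-GFP, and at 3.83 in susceptible and 1.49 in control. Ptpn6, a phosphatase of blood cells and microglia, was at 19.1 in AAV-CDYL and 1.24 in AAV-GFP, and at 2.47 in susceptible and 1.36 in control, where it was not counted. Among 35 other interferon-stimulated genes, all 34 at the floor were higher in AAV-CDYL (median 2.74; 16 of 16 at 1 FPKM in AAV-GFP). Lgals3bp was at 152 FPKM in AAV-CDYL and 3.78 in AAV-GFP, and the chemokine gene Cxcl10 at 82.4 and 0.0209. In the stress pair 12 of 16 were higher and 0 lower (median 0.80; 5 of the 8 at 1 FPKM in control), with Cxcl10 at 5.38 in susceptible and 0 in control.

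Markers of other cells moved beside the members. The shares of all genes that were higher stand beside these counts too, and 14.4% of all genes were lower in the AAV pair and 10.8% in the stress pair. In the AAV pair 9 of 10 microglia and macrophage markers were higher, with a summed level of 1151 FPKM in AAV-CDYL and 185 in AAV-GFP, and all 9 leukocyte markers at the floor were higher, with 44.3 in AAV-CDYL and 1.08 in AAV-GFP, where 6 of the 10 were at 0 and none reached 1 FPKM. Astrocyte and oligodendrocyte markers were higher for 5 of 5 and 6 of 6, and endothelial markers for 3 of 5. Neuronal markers of the labelled cortex were abundant, Slc17a7 at 568 FPKM in AAV-CDYL and 803 in AAV-GFP, and were lower for 3 of 5 excitatory and 2 of 3 pan-neuronal genes. In the stress pair microglia and macrophage markers were higher for 1 and lower for 1 of 7, with a sum of 140.5 in susceptible and 134 in control, and leukocyte markers had 3 of 10 genes listed, with a sum of 1.65 in susceptible and 0.386 in control. Endothelial markers were higher for 4 of 6, with a sum of 218 FPKM in susceptible and 74.95 in control. Oligodendrocyte markers were higher for 6 of 6, with a median of 1.497 and a sum of 1434 FPKM in susceptible and 549 in control. Astrocyte markers were higher for 1 of 4, Gfap, at 31.0 FPKM in susceptible and 2.92 in control. Of 6 excitatory and 4 pan-neuronal markers, 3 and 2 had a row in the stress pair. All 5 were listed below control, and 1 of the 3 and 1 of the 2 were lower by the size rule. The others, Slc17a7 among them, had no row, which does not show that they were alike. The part that any of these cells have in the interferon-induced differences was not tested.

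**Figure D5:**
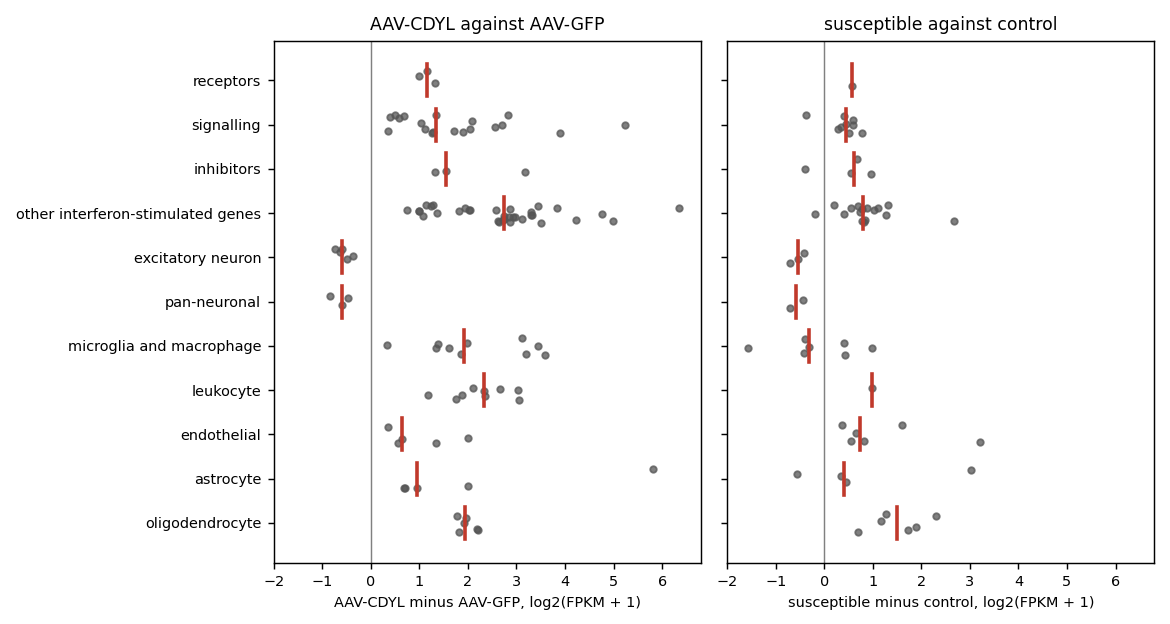
Differences in log2(FPKM + 1) of single genes (grey points, spread vertically at random) and the median (red line) for the pathway and marker lists, in the AAV pair (left) and the stress pair (right), for genes at 1 FPKM in either library. In the AAV pair receptors to other interferon-stimulated genes, glia and leukocytes lie right of 0 and neuronal markers left of it, and in the stress pair the microglia median is -0.31.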

How the data were processed

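RNA was extracted with Trizol and libraries were made from total RNA with a NEBNext Ultra kit, per the labels' protocols. The authors deposited FPKM for both libraries of a pair, with p-values and q-values of their own comparison. The values come from Cuffdiff on mm10, per the submitters' processing notes; no aligner, annotation or version is named there. Positions are those of the deposited tables. The susceptible column was matched to its title although its header lacks a letter, and 0 per-sample columns were left unmapped.

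The pseudocount was 1, the floor 1 FPKM in either library and the size rule 1.5-fold. The members and lists were chosen with earlier results of these data known. Sentences of their own went, per family and pair, to the member with the highest treated FPKM, the one with the largest difference and any lower by the size rule, and other members named were chosen after their values were seen. FPKM of rare genes moves in steps of 1 fragment, and the step of genes with 1 transcript of 3 to 20 kb (GENCODE M21, same build) gave the effective depth; within a tolerance of 0.15, 89.3% or more of the values up to 4.5 steps were whole. Fragments per gene used the mean length of its coding transcripts. Fold intervals are exact binomial. About 33.3% of genes in the AAV table and 31.2% in the stress table share a locus with another listed gene, among them 18 and 16 members, and the kit does not mark strand, so fragments of overlapping genes and near copies cannot be assigned with certainty. Alternatives were other pseudocounts, floors, fold rules, centring, upper-quartile scaling and leaving out shared loci. Tools were scipy 1.17.1, pandas 2.3.3, numpy 2.4.6 and matplotlib 3.10.9, under Python 3.11.15.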

Additional observations from a re-analysis of the deposited data

How the results depend on the processing

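No member or pooled pathway median changed sign under any alternative run, and no member was lower by the size rule under any of them. No paired analysis was possible because each group has 1 library, and for the same reason no library could be left out. In the AAV pair the members' median of 3.42 became 4.90 with a pseudocount of 0.1, and 20 of 21 members were higher with a floor in AAV-GFP. The 5 pathway lists together had 56 of 59 genes higher with a median of 2.03, which became 3.002 with a pseudocount of 0.1. With the floor in AAV-GFP 33 of their 36 genes were higher. Of all genes, 31.3% were higher in the main run and 21.2% with the floor in AAV-GFP.

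In the stress pair the members' median of 0.92 became 1.69 and 1.24 with pseudocounts of 0.1 and 0.5, 0.45 without a floor, 1.55 with a floor of 5 FPKM (5 members higher, all that were left) and 0.68 after centring on the median of all genes. The number higher was 8 of 12 with a floor in control and 13 of 31 at 2-fold. Of all genes, 18.9% were higher in the main run, 13.5% with a floor in control and 6.86% at 2-fold. The share was 15.5% with a floor of 5 FPKM and 9.97% after centring. These shares stand beside the counts of the pathway lists too. The pathway lists, 17 of 30 higher with a median of 0.64, had medians of 1.03 and 0.79 with pseudocounts of 0.1 and 0.5, 0.51 with a floor of 5 FPKM (3 higher) and 0.39 after centring (8 higher, 2 lower), and 8 and 5 higher with a floor in control and at 2-fold. Centring moves all genes by 0.30 in the AAV pair and 0.24 in the stress pair and turns the split of all genes to 1630 higher and 3572 lower, and to 532 and 1918, while 56 and 21 members stay above the size rule. The medians used for it leave out the unlisted genes that differ least, so it does not check the scaling of the libraries. With a floor of 5 FPKM the stress medians of inhibitors, then 1 gene, and of microglial markers became -0.40 and 0.0090. The ISRE core followed by a C was in 42.2% of member genes and 0.944% of all genes, and TTCNNNGAA in 28.9% and 9.55%. Members with at least 5 estimated fragments in each library, chosen after seeing the data, were higher for 43 of 44 and 19 of 26 in the AAV and stress pairs. This filter was not applied to all genes, so no share of all genes stands beside these counts. Values under about 5 fragments, as in 21 members of AAV-GFP and 18 of control, limit their folds.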

Other observations

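Levels of the members in the libraries that serve as baselines can be set side by side only across tables that were normalized separately. Over 36 members above 0.1 FPKM in both, the median ratio of AAV-GFP to control was 1.00. Single members departed from it: Ifitm3 was at 3.95 FPKM in AAV-GFP and 8.79 in control, Ifi27l2a at 0.216 and 1.71, and Isg20 at 0.147 and 1.018, whereas Isg15 was at 1.44 in AAV-GFP and 0.268 in control and Tgtp2 at 1.37 and 0.382. Oas3, Oasl1, Ifi205 and Zbp1, listed at 0 in AAV-GFP, were at 0.0582, 0.105, 0.0483 and 0.298 FPKM in control. These control values rest on about 2, 3, 1 and 6 estimated fragments. The low values of Ifi27l2a and Isg20 in AAV-GFP rest on about 2 and 3, and that of Isg15 in control on about 3. Such departures are poorly fixed.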
